A study of Mus musculus with 7899 samples.

Results

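The genes described here are 10 enzymes of serine, glycine, folate and asparagine metabolism, chosen by symbol: Phgdh, Psat1, Psph, Shmt1, Shmt2, Mthfd2, Mthfd1l, Mthfd1, Aldh1l2 and Asns. All 10 were among the 21767 genes of the count table for the pregnancy time course, and 9 were in the Stat3 knockout table, in which Phgdh had no row. The study concerned the adaptation of maternal β cells and the enzyme ACSS2, and sequenced single cells labelled as β cells from female C57BL/6J mice. Islets were taken after collagenase perfusion, dissociated with trypsin, and single cells were sorted into plates and sequenced with Smart-seq3xpress, a full-length single-cell RNA method. The reads of 7897 cells were summed into 100 libraries in 7 tables, 1 library for each labelled replicate.

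The time course held the baseline G0, early gestation (G3.5, G5.5 and G6.5), mid gestation (G8.5, G10.5 and G12.5) and late gestation (G14.5, G16.5 and G18.5), the number being the day. After delivery it held P2L, P2NL, P7L, P7NL, P14L and P14NL, taken 2, 7 or 14 days later. No label says what L and NL stand for, and here L is taken as lactating and NL as without lactation. G0 is named only as such. G14.5, G18.5 and P14L had 3 libraries and the other 13 groups had 2. A group labelled Acss2 knockout stood against Acss2 wild type at G14.5, at G18.5 and at G0, a Stat3 knockout against its wild type at the same stages, and a p300 knockout against its wild type at G0 and G14.5, with 2 libraries in each group. The promoter or cell type that drives each deletion is not given in the labels. Mice on a high-fat diet were sampled at G14.5 (3 libraries), P7NL and G0 (2 each), and as Acss2 knockouts and wild types at G14.5 and G0 (2 each), beside 2 libraries of Acss2 wild types at G14.5 on a standard diet. Isolated islets, about 40 to a well, were also kept for 4 days in medium with 20% human serum, either maternal or normal, and with either 5 µM A485, 20 µM nifuroxazide or the vehicle of each (2 libraries per group). A485 blocks the acetyltransferases p300 and CBP, and nifuroxazide is used as an inhibitor of Stat3 signalling. The number of mice behind a library is not given, so the tests measure the spread between these libraries.

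Phgdh, Psat1 and Psph form the chain that turns a glycolytic intermediate into serine. Shmt2 in mitochondria and Shmt1 in the cytosol then split serine into glycine and a carbon unit carried by folate, which Mthfd2, Mthfd1l and Aldh1l2 oxidise or release in mitochondria and Mthfd1 handles in the cytosol for purine, thymidine and methionine synthesis. Asns makes asparagine from aspartate and is a classic target of Atf4, the transcription factor of the amino acid and endoplasmic reticulum stress responses, which also drives Phgdh, Psat1, Psph, Shmt2, Mthfd2 and Aldh1l2 in many cell types. The β cell makes and folds large amounts of insulin, and the branch of the stress response that runs through Atf4 is active in it.

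The promoters of a serine synthesis gene, a mitochondrial folate gene and Asns are shown because these 3 genes moved together in several stages below. Each is the 250 bases before the gene's start in the RefSeq table for GRCm38.p6, on the minus strand, 5′ to 3′. They lie at chr3:98339970-98340219 for Phgdh, chr6:83317605-83317854 for Mthfd2 and chr6:7693210-7693459 for Asns. Capitals mark a match to TGATGNAA, the letters of the composite element bound by Atf4 with C/EBP proteins, searched on both strands.
Phgdh: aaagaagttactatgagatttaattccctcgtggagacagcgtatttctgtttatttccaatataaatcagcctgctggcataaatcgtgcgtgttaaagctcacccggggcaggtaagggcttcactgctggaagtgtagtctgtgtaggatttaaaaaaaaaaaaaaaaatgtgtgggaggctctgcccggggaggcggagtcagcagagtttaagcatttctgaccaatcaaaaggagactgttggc
Mthfd2: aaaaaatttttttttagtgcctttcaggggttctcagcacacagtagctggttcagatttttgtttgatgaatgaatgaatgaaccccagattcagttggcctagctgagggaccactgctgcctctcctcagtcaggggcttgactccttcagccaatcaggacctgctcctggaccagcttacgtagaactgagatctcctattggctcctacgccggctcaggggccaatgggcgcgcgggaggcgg
Asns: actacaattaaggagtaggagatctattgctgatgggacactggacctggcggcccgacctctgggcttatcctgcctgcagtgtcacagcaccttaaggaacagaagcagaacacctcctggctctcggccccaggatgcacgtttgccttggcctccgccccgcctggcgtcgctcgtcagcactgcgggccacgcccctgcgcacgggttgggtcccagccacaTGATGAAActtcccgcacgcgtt
The Asns window held a single match, TGATGAAA, whose leading base is at position -23 from the start. It was the only match among the 9 members that had a window, while 1134 of 32851 RefSeq windows of this length (3.45%) held the letters. The whole Mthfd2 window lies inside the span of the Ensembl gene, while the Phgdh and Asns windows overlap the start of theirs in part. A match is a description of letters, and its absence in a window of this length says nothing about binding elsewhere.

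In GRCm38 coordinates the members lay on 7 chromosomes: Phgdh at chr3:98313170-98339990, Psat1 at chr19:15904678-15947337, Psph at chr5:129765558-129787449, Shmt1 at chr11:60788104-60811718, Shmt2 at chr10:127517123-127522444, Mthfd2 at chr6:83305691-83325908 and Asns at chr6:7675169-7693254. Aldh1l2 was at chr10:83487450-83534140, and these 8 genes are read from the minus strand, whereas Mthfd1l at chr10:3973118-4167081 and Mthfd1 at chr12:76255298-76319803 are read from the plus strand. Opposite-strand genes overlap Shmt1 (Smcr8), Shmt2 (Ndufa4l2) and Aldh1l2 (D10Wsu102e), and the sources used here do not say whether reads were counted by strand. None of these 3 partners was called in a comparison of a time course stage with G0. Psat1, Psph, Mthfd1, Mthfd2 and Mthfd1l overlap only annotated genes without a row in the time course counts, so those overlaps could not be checked.

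The time course libraries held 35 to 160 cells and 25623339 to 181405413 reads. Over all 7 tables the smallest library had 13273435 reads, so a gene with no read in a library was below 0.299 CPM (a gene's count scaled to its library's TMM-adjusted total), the level of 3 reads in the smallest one. The 10 β cell markers, insulin genes included, summed to between 516394 and 653727 CPM in the time course, where marker sums are taken per library total without the TMM factor. No cell name occurred in more than 1 table. In summed libraries, fewer cells that use a gene and less of its RNA per cell cannot be told apart.

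The deposited normalized values, scaled by gene length and cell, were averaged over the 35 time course libraries (mean ± SD). On this scale Asns was the most abundant member at 21.3 ± 3.60. Mthfd2 followed at 14.1 ± 3.74 and Mthfd1 at 8.54 ± 0.914. Phgdh averaged 4.54 ± 1.82, Shmt2 3.22 ± 0.845, Aldh1l2 2.78 ± 0.840 and Mthfd1l 2.21 ± 0.479 on the same scale. The other 2 serine synthesis enzymes were lower, with Psph at 1.83 ± 0.457 and Psat1 at 1.19 ± 0.472, and cytosolic Shmt1 was lowest at 0.150 ± 0.0865. In these means mitochondrial Shmt2 was thus more abundant than cytosolic Shmt1, and Mthfd1l lay below Mthfd1. Mitochondrial Mthfd2 lay above cytosolic Mthfd1 in the mean over all libraries, but at G0 both averaged 9.16.

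Over the time course, members that passed the test against G0 were all higher than at G0. The test was edgeR's quasi-likelihood test on the summed counts with Benjamini-Hochberg adjustment over all 15373 genes tested, at an adjusted p under 0.05, and all stages share the same 2 G0 libraries. Of the 10 members, 5 rose at G5.5 and at G12.5, 4 at G14.5 and G18.5, 2 at G10.5 and G16.5, and 1 at G3.5. The share of all genes called higher was 0.982% at G5.5, 3.28% at G12.5, 5.96% at G14.5, 3.27% at G18.5, 1.9% at G10.5, 4.48% at G16.5 and 0.423% at G3.5. After delivery 3 members rose at P14L, 2 at P2L and P14NL, and 1 at P2NL and P7L, where 2.3%, 1.96%, 0.15%, 0.481% and 2.54% of all genes were called higher.

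No member was called by edgeR at G6.5, G8.5 or P7NL, where 1.65%, 5.79% and 0.462% of all genes were called in either direction. At an unadjusted p under 0.05 the counts were 0, 4 and 4 members there, beside 2020, 3081 and 1763 of 15373 genes. DESeq2 called 0, 2 and 1 members. The share of all genes that DESeq2 called is not given here or below, so its member calls lack a background. The median log2 difference from G0 over the 10 members was 0.30 at G3.5, 0.95 at G5.5, 0.09 at G6.5, 0.45 at G8.5, 0.56 at G10.5, 0.94 at G12.5, 0.73 at G14.5, 0.58 at G16.5 and 0.72 at G18.5, while the median of all genes was between 0 and 0.02. The course thus had high points at G5.5 and G12.5 with a low point at G6.5 between them. After delivery the median was 0.57 at P2L, 0.30 at P2NL, 0.36 at P7L, 0.43 at P7NL, 0.96 at P14L and 0.45 at P14NL. The direct difference between G6.5 and G5.5 was not tested.

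**Figure D1:**
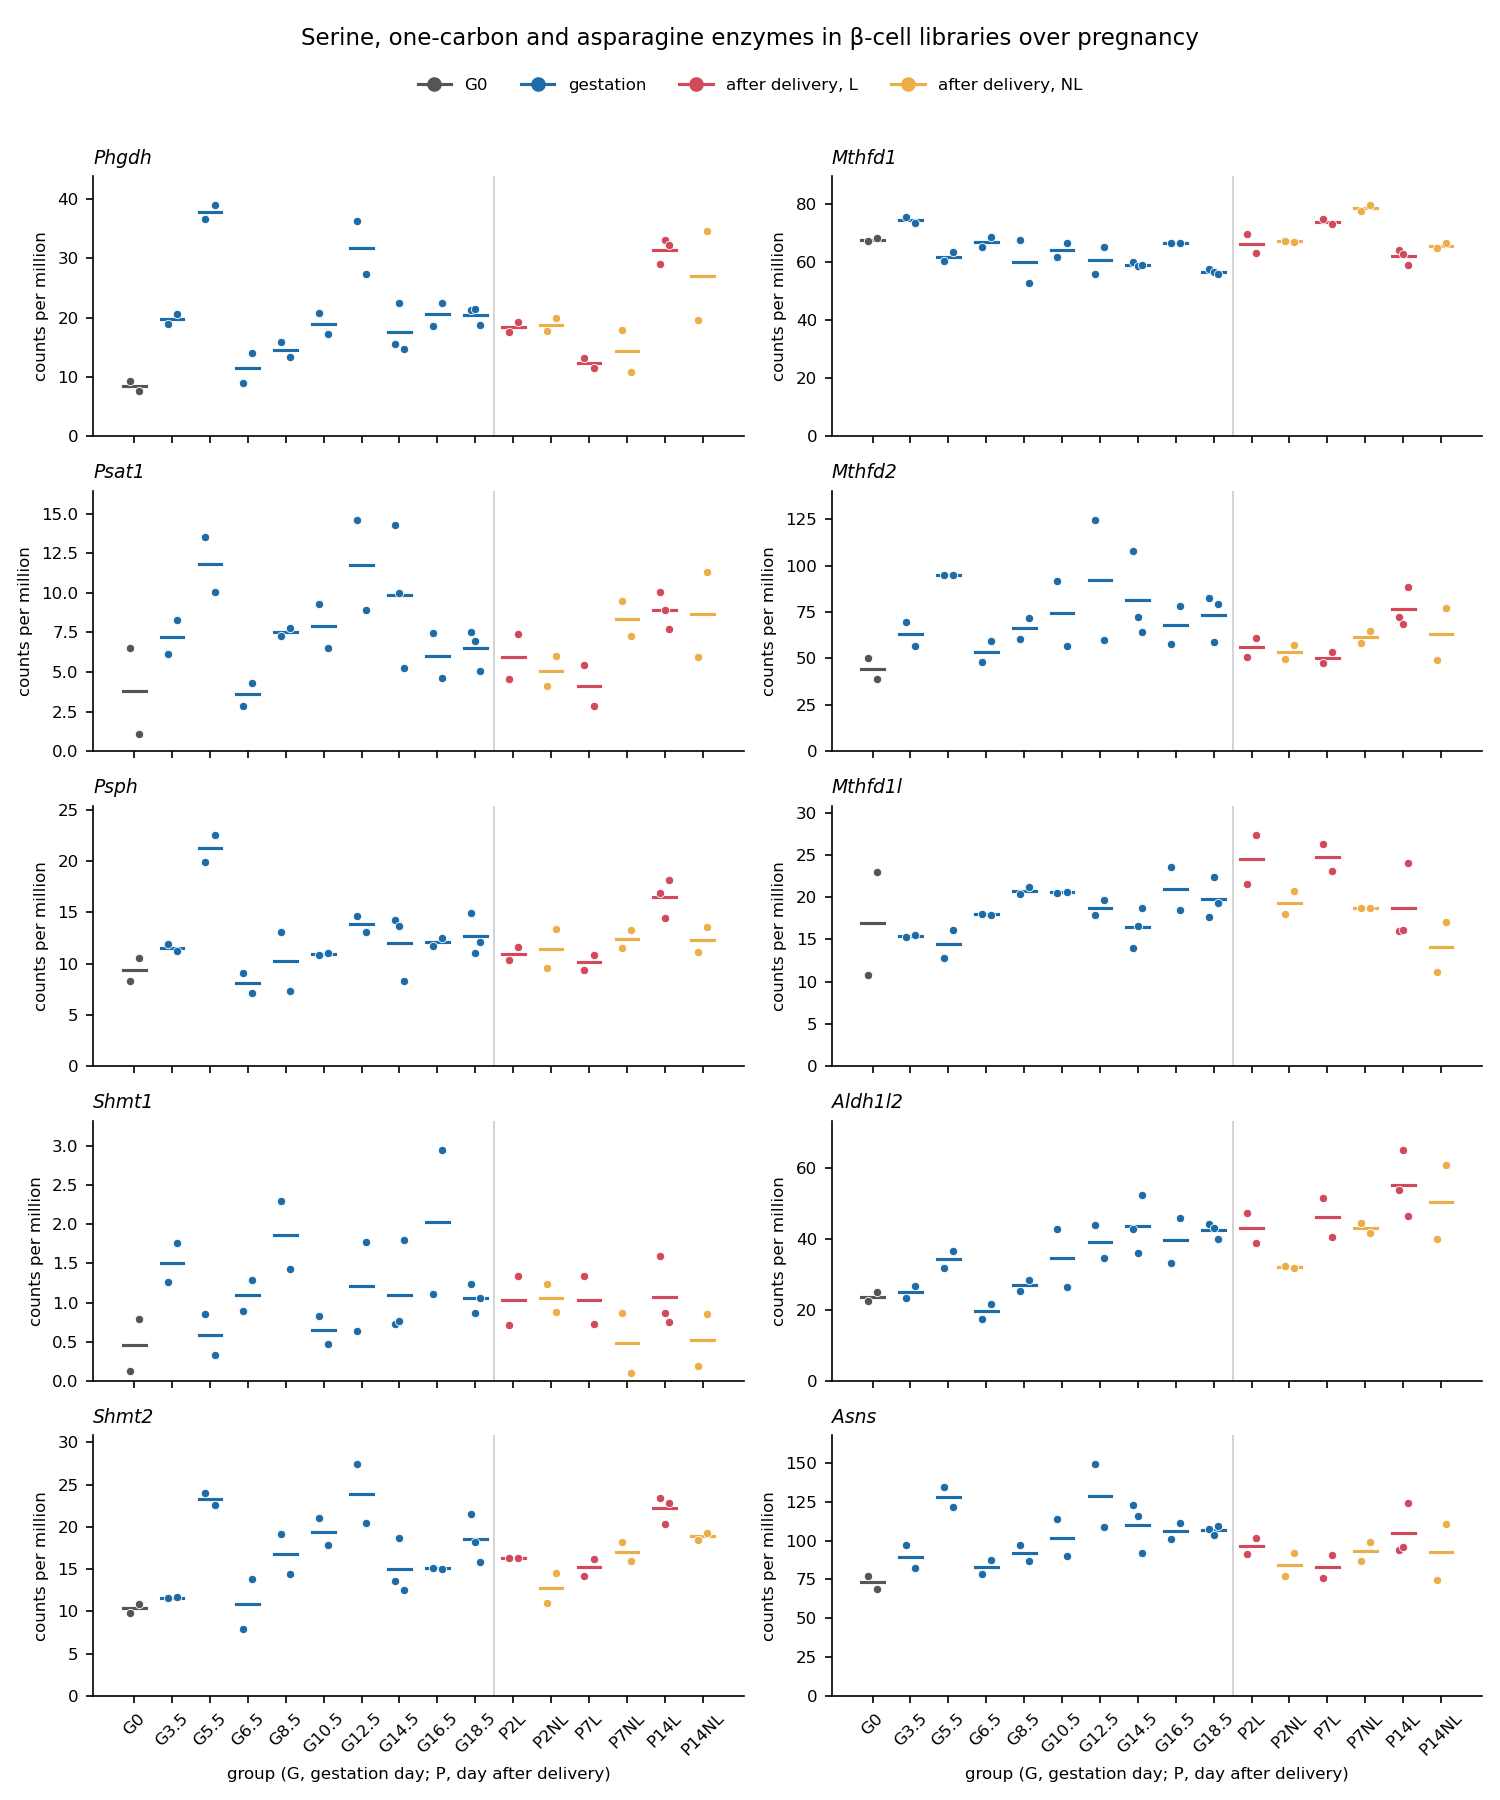
CPM of each enzyme gene at G0, along gestation and after delivery (points are summed libraries, bars are group means, linear axes that differ between panels). Phgdh stands at 36.6 and 39.0 CPM in the G5.5 libraries and at 9.06 and 13.999 CPM at G6.5, and Mthfd1 stays between 52.8 and 79.7 CPM throughout.

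Without the library G0 replicate 2, the number of calls over the 9 gestation stages was 6 in place of 23, and without G0 replicate 1 it was 21. G0 replicates 1 and 2 gave 9.36 and 7.58 CPM of Phgdh, 50.1 and 38.7 CPM of Mthfd2, and 6.54 and 1.08 CPM of Psat1. A limma test on the means of the deposited normalized values called 11 in place of the 23, losing Phgdh at G3.5 and G14.5, Psph at G5.5, Shmt2 at G10.5 and G18.5, Mthfd2 at G12.5 and G14.5, Aldh1l2 at G12.5 and G16.5, and Asns at G5.5, G14.5 and G18.5. After delivery limma lost Phgdh at P2L and P2NL and Aldh1l2 at P2L and P14NL.

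Phgdh, the rate-limiting enzyme of serine synthesis, had the largest differences among the calls. It had 9.36 and 7.58 CPM at G0, 19.0 and 20.6 at G3.5, 36.6 and 39.0 at G5.5, 9.06 and 13.999 at G6.5, 15.9 and 13.3 at G8.5, 20.7 and 17.2 at G10.5, and 36.2 and 27.4 at G12.5. Later in gestation it had 15.5, 22.4 and 14.6 CPM at G14.5, 18.6 and 22.5 at G16.5, and 21.3, 21.4 and 18.7 at G18.5. Every library was above both G0 libraries except 1 of the G6.5 libraries. After delivery it had 17.6 and 19.2 CPM at P2L, 17.7 and 19.8 at P2NL, 13.2 and 11.5 at P7L, 17.9 and 10.8 at P7NL, 29.1, 33.1 and 32.2 at P14L, and 19.5 and 34.6 at P14NL. The P14L libraries were all above the P7L, P7NL, P2L and P2NL libraries.

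Against G0, Phgdh was higher by a log2 difference of 2.15 (SE 0.26, edgeR adjusted p = 1.99e-05) at G5.5, 1.90 (SE 0.26, edgeR adjusted p = 1.55e-05) at G12.5 and 1.88 (SE 0.24, edgeR adjusted p = 6.74e-06) at P14L. It was called in 11 of the 15 stages, the exceptions being G6.5, G8.5, P7L and P7NL. In the order of group means, G5.5 was separated from the next group, G12.5, while each of the other neighbouring groups overlapped. At G14.5, Phgdh was lower than at G5.5 by a log2 difference of -1.11 (SE 0.22, edgeR adjusted p = 0.00107), with 17.5 ± 4.24 CPM (SD, n = 3) at G14.5 and 37.8 ± 1.66 CPM (SD, n = 2) at G5.5. Of all genes, 10.9% were called in that comparison.

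The Phgdh calls at G5.5, G12.5, G16.5, G18.5 and P14L, and that of G14.5 against G5.5, held with every single library left out. Without G0 replicate 2 the edgeR adjusted p of Phgdh was 0.216 at G3.5, 0.123 at G10.5, 0.0798 at G14.5, 0.157 at P2L, 0.273 at P2NL and 0.0729 at P14NL. The G3.5 call was also lost without G3.5 replicate 1 (0.0637) or replicate 2 (0.0919), the G10.5 call without G10.5 replicate 1 (0.111), the P2L call without P2L replicate 2 (0.148), the P14NL call without P14NL replicate 2 (0.0689) and the P2NL call without any of its 4 libraries, with G0 replicate 1 at 0.0583 and P2NL replicates 1 and 2 at 0.138 and 0.156.

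Psph, the phosphatase that releases serine in the last step, had 19.9 and 22.6 CPM at G5.5, against 8.27 and 10.6 CPM at G0. Both G5.5 libraries lay above the libraries of all other groups. The log2 difference was 1.18 (SE 0.26, edgeR adjusted p = 0.0181), and at G14.5 Psph was lower than at G5.5 (log2 difference -0.82, SE 0.23, edgeR adjusted p = 0.0179), with 14.2, 13.6 and 8.33 CPM at G14.5. The P14L libraries had 16.9, 14.4 and 18.1 CPM, all above G0, and were called by DESeq2 but not by edgeR (adjusted p = 0.0542). Leaving out any 1 of the 4 libraries ended the Psph call at G5.5, with adjusted p values of 0.111 and 0.0710 without G0 replicates 1 and 2 and of 0.0506 and 0.138 without G5.5 replicates 1 and 2. The lower level at G14.5 was lost without G14.5 replicate 3 (0.128) or without G5.5 replicate 1 (0.0590) or 2 (0.161).

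Psat1, the transaminase between Phgdh and Psph, was called at no stage with all libraries. It had 13.5 and 10.0 CPM at G5.5 and 14.6 and 8.90 CPM at G12.5, against 6.54 and 1.08 CPM at G0. Its G0 libraries stood further apart than those of Phgdh or Psph, and the 5 groups in which every library exceeded G0 were not called by edgeR. DESeq2 called Psat1 higher at G5.5, G12.5 and G14.5. Without G0 replicate 1, edgeR called Psat1 higher at 12 of the 15 stages, by a log2 difference of 3.44 (adjusted p 0.00507) at G5.5, 3.44 (0.00141) at G12.5 and 3.03 (0.00365) at P14L, with G0 replicate 2, which had 26 Psat1 reads, as the lone G0 library. Without G0 replicate 2 it was called at no stage, and without G14.5 replicate 3 it was called at G14.5.

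**Figure D2:**
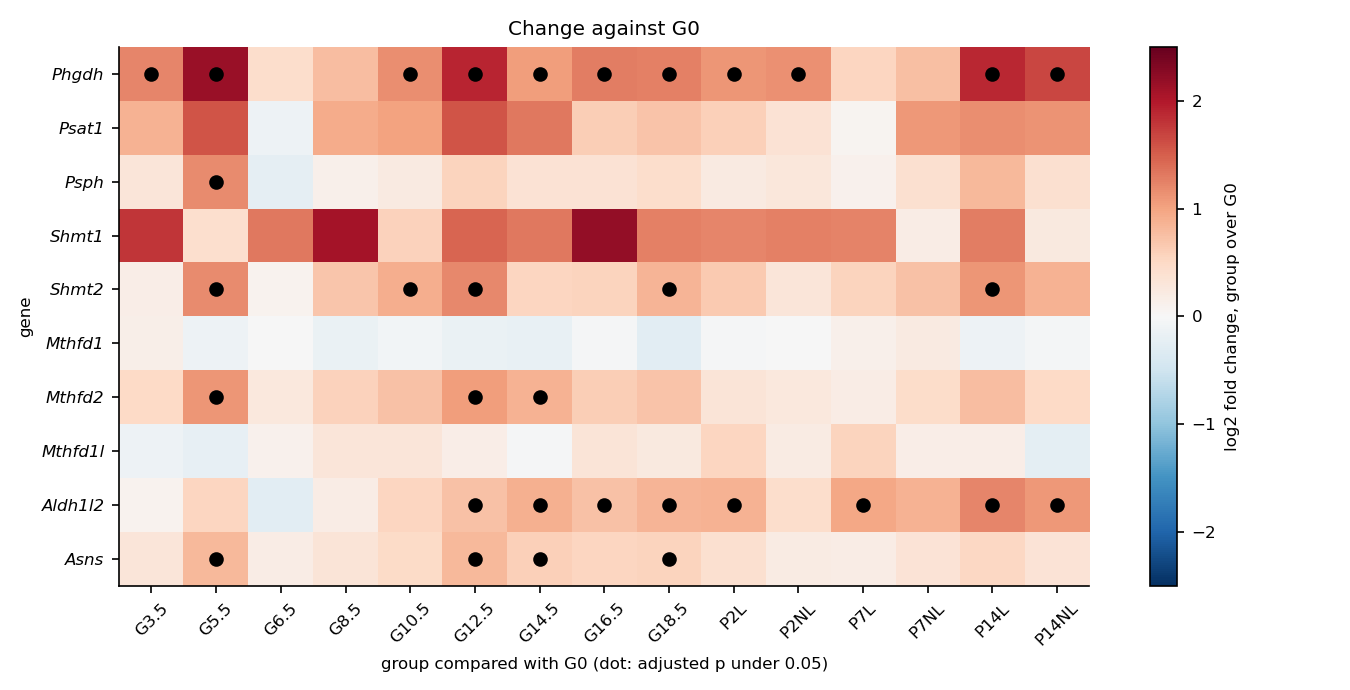
Log2 difference of each enzyme gene from G0 at the 15 later stages (colour is the edgeR estimate, red for higher and blue for lower than at G0; a dot marks an adjusted p under 0.05). Phgdh reaches 2.15 at G5.5, 1.90 at G12.5 and 1.88 at P14L, and no dot lies on a blue cell. The dark cells of Shmt1, such as 2.20 at G16.5, carry no dot.

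Shmt2, the mitochondrial serine hydroxymethyltransferase, was called at 5 stages. It had 24.0 and 22.5 CPM at G5.5, 27.4 and 20.4 at G12.5 and 23.5, 20.3 and 22.8 at P14L, against 9.76 and 10.9 CPM at G0. None of these libraries overlapped those of G0. The log2 difference from G0 was 1.17 (SE 0.23, edgeR adjusted p = 0.00679) at G5.5, 1.21 (SE 0.23, edgeR adjusted p = 0.00136) at G12.5 and 1.11 (SE 0.22, edgeR adjusted p = 0.00199) at P14L. Shmt2 was also higher at G10.5 by 0.91 (edgeR adjusted p = 0.0232) and at G18.5 by 0.84 (edgeR adjusted p = 0.0157), and lower at G14.5 than at G5.5 (log2 difference -0.64, edgeR adjusted p = 0.0395). At G6.5 it had 7.86 and 13.8 CPM, which overlapped G0.

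The Shmt2 calls at G12.5 and P14L held with every single library left out. The G5.5 call was lost with adjusted p values of 0.0508 and 0.0606 when G0 replicate 1 or 2 was left out, and of 0.0531 when G5.5 replicate 1 was. The G10.5 call was lost without G0 replicate 1 (0.154) or 2 (0.0996) or G10.5 replicate 1 (0.233) or 2 (0.0574), the G18.5 call without G0 replicate 1 (0.141) or 2 (0.0860) or G18.5 replicate 1 (0.0818), and the difference of G14.5 from G5.5 without G14.5 replicate 1 (0.135) or 3 (0.179) or G5.5 replicate 1 (0.203) or 2 (0.134), and with limma or the replicate block (up to 0.0908). Cytosolic Shmt1 stayed between 0.107 and 2.95 CPM in all libraries of the time course and was called at no stage. At such low counts its estimates were large and loose: it had 1.11 and 2.95 CPM at G16.5, against 0.127 and 0.791 CPM at G0 (log2 difference 2.20, SE 0.97, edgeR adjusted p = 0.191).

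Of the mitochondrial folate enzymes, Mthfd2 was called at G5.5, G12.5 and G14.5, and Aldh1l2 at the 4 gestation stages from G12.5 on and in 4 of the 6 groups after delivery. Mthfd2, the dehydrogenase and cyclohydrolase, had 94.9 and 95.1 CPM at G5.5, 125 and 60.0 at G12.5 and 108, 72.1 and 64.4 at G14.5, against 50.1 and 38.7 CPM at G0. The log2 difference from G0 was 1.10 (SE 0.27, edgeR adjusted p = 0.0343) at G5.5, 1.05 (SE 0.27, edgeR adjusted p = 0.0189) at G12.5 and 0.87 (SE 0.25, edgeR adjusted p = 0.0227) at G14.5. At G12.5 a single library carried much of the difference: without G12.5 replicate 1 the Mthfd2 log2 difference was 0.43 (adjusted p 0.537), and without G0 replicate 2 it was 0.88 (0.212). The G14.5 call was lost without G0 replicate 2 (0.227) or G14.5 replicate 1 (0.153), and the G5.5 call without G0 replicate 2 (0.332) or G5.5 replicate 1 (0.117) or 2 (0.145). After delivery Mthfd2 was not called, with 72.2, 68.5 and 88.3 CPM at P14L.

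Aldh1l2, which releases the carbon unit in mitochondria and makes NADPH, was called after delivery at P14L, P14NL, P7L and P2L. It had 54.0, 65.3 and 46.5 CPM at P14L, 39.9 and 60.9 at P14NL and 51.6 and 40.8 at P7L, against 22.5 and 25.1 CPM at G0, with no overlap. The log2 difference was 1.22 (SE 0.21, edgeR adjusted p = 0.000391) at P14L, 1.09 (SE 0.22, edgeR adjusted p = 0.0201) at P14NL and 0.96 (SE 0.22, edgeR adjusted p = 0.00899) at P7L. In gestation Aldh1l2 had a log2 difference of 0.89 (SE 0.21, edgeR adjusted p = 0.00469) at G14.5 and 0.84 (SE 0.21, edgeR adjusted p = 0.0118) at G18.5, and it was called at P2L by 0.86 (SE 0.22, edgeR adjusted p = 0.0256). It was not called by edgeR at P7NL, with 44.6 and 41.7 CPM (0.86, edgeR adjusted p = 0.0701), where DESeq2 called it, or at P2NL, with 32.5 and 31.9 CPM. At G5.5, when Phgdh was highest, it had 31.9 and 36.8 CPM and was not called. At G6.5 it had 17.6 and 21.7 CPM, below both G0 libraries.

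Of the 8 Aldh1l2 calls only that at P14L held with each library left out. Without G0 replicate 1 the adjusted p was 0.215 at G12.5, 0.0703 at G14.5, 0.184 at G16.5, 0.115 at G18.5, 0.154 at P2L, 0.100 at P7L and 0.0921 at P14NL. Without G0 replicate 2 the Aldh1l2 values were 0.151 at G12.5, 0.109 at G16.5, 0.0656 at G18.5, 0.103 at P2L and 0.123 at P14NL. The stages' own libraries ended it at G12.5 (0.334 without replicate 1 and 0.0603 without replicate 2), G16.5 (0.391 without replicate 2), P2L (0.157 and 0.0819 without replicates 1 and 2), P7L (0.177 without replicate 1) and P14NL (0.281 without replicate 2).

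Mthfd1l, the mitochondrial formate-producing synthetase, and Mthfd1, the trifunctional cytosolic enzyme, were called at no single stage against G0. The G0 libraries of Mthfd1l had 10.8 and 23.0 CPM and spanned most of the range of the later libraries, which ran between 11.1 and 27.4 CPM. Mthfd1 had 57.5, 56.6 and 55.9 CPM at G18.5, its lowest group mean, and 77.6 and 79.7 CPM at P7NL, its highest, beside 67.2 and 68.2 CPM at G0. Its libraries were the closest together of the members, and the test for any difference over the 16 groups gave it an edgeR adjusted p of 0.0484, which was lost without any single library other than G8.5 replicate 1, G12.5 replicate 2 or G14.5 replicate 2 (up to 0.133). That test called 7 members, where 17.4% of all genes were called: Phgdh (2.44e-06), Aldh1l2 (7.92e-05), Shmt2 (0.000835), Psph (0.0130), Asns (0.0211), Mthfd2 (0.0469) and Mthfd1. Psat1 passed it without G0 replicate 1 or G0 replicate 2. Psph was lost there without G5.5 replicate 2 (0.0713), and Mthfd2 without G0 replicate 2 (0.0837), G5.5 replicate 1 or 2, G6.5 replicate 1, G18.5 replicate 1 or 3, P2NL replicate 1, P7L replicate 1 or 2, or P14L replicate 1 or 3 (0.0518 to 0.0705).

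Asns, the asparagine synthetase, moved with Mthfd2. It had 134 and 122 CPM at G5.5, 149 and 109 at G12.5, 123, 116 and 92.1 at G14.5 and 108, 104 and 109 at G18.5, against 77.4 and 68.7 CPM at G0. All these libraries lay above those of G0. The log2 difference was 0.81 (SE 0.18, edgeR adjusted p = 0.0185) at G5.5, 0.82 (SE 0.18, edgeR adjusted p = 0.00504) at G12.5, 0.59 (SE 0.17, edgeR adjusted p = 0.0187) at G14.5 and 0.55 (SE 0.17, edgeR adjusted p = 0.0487) at G18.5. At G6.5 it had 78.2 and 87.5 CPM, and at P14L 94.2, 95.8 and 124 CPM, which DESeq2 called and edgeR did not (adjusted p = 0.0824). Without G0 replicate 2 the adjusted p of Asns was 0.211 at G5.5, 0.0904 at G12.5, 0.182 at G14.5 and 0.357 at G18.5. Its calls were also lost without G5.5 replicate 1 (0.119) or 2 (0.0642), G12.5 replicate 1 (0.151), G14.5 replicate 1 (0.0823), each G18.5 replicate (0.0752 to 0.126), and, at G14.5 and G18.5, G0 replicate 1 (0.0563 and 0.0997). The Asns call at G18.5 was also lost under 5 of 7 other settings, with an adjusted p of 0.0562 with RLE factors, 0.0523 without the insulin genes, 0.0554 without cells rich in other hormones, 0.0862 with the replicate block and 0.138 by limma.

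Marker sums differed between the stages with most calls and G0. The groups are compared here by their lowest and highest libraries. The α cell and hepatocyte lists share the gene Ttr, so their sums are not separate signals. At G5.5 the sums of the 9 α cell markers (4563 to 5476 CPM, against 2080 to 3634 CPM at G0), the 7 ductal markers (288 to 308, against 156 to 192), the 20 hepatocyte markers (1717 to 2265, against 960 to 1401) and the 8 immune markers (92.6 in both libraries, against 67.2 to 75.8) lay above those of G0. No α or ductal marker was at 0 at G5.5, while 7 of the hepatocyte and 4 of the immune markers were. At G12.5 the immune sum lay above G0 (120 to 122 CPM), and the 18 cell cycle genes summed to between 169 and 324 CPM, against 42.7 to 182 CPM at G0. At P14L the ductal (235 to 290 CPM) and immune (93.3 to 139 CPM) sums lay above G0, and the hepatocyte sum (634 to 819 CPM) and that of the 6 δ cell markers (64.6 to 167, against 262 to 774 CPM at G0) lay below it. Below G0 too were the hepatocyte and δ cell sums at G14.5 (430 to 498 and 34.1 to 149 CPM) and G18.5 (384 to 568 and 56.5 to 184 CPM). The ductal (199 to 221 CPM) and immune (77.0 to 129 CPM) sums at G18.5 lay above G0, while those at G14.5 overlapped it. The immediate early and heat shock genes released by tissue dissociation summed to between 1029 and 1289 CPM at G5.5, 1342 and 1419 at G6.5, 1109 and 1309 at G12.5 and 888 and 1311 at P14L, against 812 to 833 CPM at G0. That sum ran between 450 and 1093 CPM at G14.5 and between 1020 and 1385 CPM at G18.5. The β cell markers summed to between 610409 and 611789 CPM at G5.5, 590436 and 613878 at G12.5 and 530045 and 609702 at P14L, against 628417 to 643926 CPM at G0. At G6.5 they summed to between 516394 and 637173 CPM, and the 6 δ cell markers to between 164 and 3862 CPM. The part of these markers in the members' changes was not tested.

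No member was called between lactating and not lactating mice at day 2, 7 or 14, where edgeR called 0.124%, 0.839% and 0.722% of all genes. At an unadjusted p under 0.05, 0, 1 and 0 members passed, beside 755, 1121 and 1419 of 15373 genes. DESeq2 called none of the members. Aldh1l2 had 47.4 and 39.0 CPM at P2L, against 32.5 and 31.9 CPM at P2NL, a log2 difference of 0.42 (SE 0.22, edgeR adjusted p = 1.00). Nor was any member called at G18.5 against G14.5, P2NL against G18.5 or P2L against G18.5, where 0.176%, 1.3% and 0.026% of genes were called and 0, 3 and 1 members had an unadjusted p under 0.05. Among all 15373 genes, 1989, 1479 and 815 passed at that unadjusted level. DESeq2 called 0 members in these 3 comparisons.

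In single cells, the members differed in how widely their reads were spread. At G0, Asns reads were found in all 107 cells, Mthfd2 in 87.9% of cells, Aldh1l2 in 67.3%, Shmt2 in 57.0%, Phgdh in 45.8% (95% Wilson interval 36.7% to 55.2%) and Psat1 in 26.2%. The share of cells with a Phgdh read was 68.7% (61.3% to 75.2%) at G5.5, 59.6% (51.3% to 67.3%) at G6.5, 70.1% (62.9% to 76.4%) at G12.5 and 77.4% (72.1% to 82.0%) at P14L. Thinned to 400000 reads per cell, the Phgdh shares were 41.5% at G0, 63.4% at G5.5, 55.3% at G6.5, 66.3% at G12.5 and 70.8% at P14L, after 4 or 5 shallower cells per group were left out. The shares at G5.5, G12.5 and P14L were thus above that at G0 at a matched number of reads per cell too. The genes detected per cell were not matched. The median level in cells with a read was 37.7 CPM at G5.5, against 18.9 CPM at G0. The intervals cover counting error only, and the cells of a group come from 2 or 3 libraries. The tenth of G0 cells with the most reads of a gene held 47.7% of the Phgdh reads, 28.0% of the Asns reads and 76.5% of the Psat1 reads.

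Across the 16 group means of the time course, the genes closest to each member by Pearson r of mean log2 CPM were sought among 7197 genes of at least 10 CPM. These r values describe 16 points. Each point is a mean of 2 or 3 libraries, and all genes of a library share its depth. Mthfd2 and Asns were each other's closest gene (r = 0.95, and 0.91 without the 2 groups farthest from the median of Mthfd2). Eif4ebp1, which encodes a repressor of translation initiation and is a known Atf4 target, was among the 3 closest genes of Phgdh (0.89), Psat1 (0.85), Psph (0.87), Shmt2 (0.85), Mthfd2 (0.94) and Asns (0.93). Yars, a tyrosyl-tRNA synthetase, was near Mthfd2 (0.90), Psat1 (0.89) and Shmt2 (0.82), and Aars, the alanyl-tRNA synthetase, led the list of Shmt2 (0.92). The closest gene to Phgdh was Gdap1l1 (0.92), to Psph Pik3r2 (0.89) and to Aldh1l2 Chn1 (0.89), with Atf5 (0.88) next for Aldh1l2. Cytosolic Mthfd1 ran the other way, with r = -0.59 to Mthfd2 and -0.56 to Asns, and its closest genes were Cerk (0.81), Gatsl2 (0.78) and Ddb1 (0.76). Mthfd1l was nearest to Slc23a2 (0.85) and Shmt1 to Taldo1 (0.85). Another member was among the 3 closest genes only for Phgdh, Psat1, Mthfd2 and Asns.

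Genes around the pathway were followed in 7 lists. Of 21 tested genes of the Atf4 list (Atf4 and its other known targets), 3 were higher at G5.5, 5 at G10.5, 4 at G12.5, 3 at G14.5, 1 at G18.5 and 5 at P14L against G0, where 0.982%, 1.9%, 3.28%, 5.96%, 3.27% and 2.3% of all genes were called higher. Atf4 itself was higher at G10.5 (log2 difference 0.88, edgeR adjusted p = 0.00695) and was called at no other stage, with differences of 0.24 (0.602) at G5.5, 0.35 (0.341) at G12.5 and 0.25 (0.515) at P14L. The median log2 difference of that list was 0.52 at G5.5 and 0.54 at P14L, against medians of all genes of 0 and 0.01. Nupr1, a stress-induced chromatin protein, was higher by 1.20 (edgeR adjusted p = 0.0241) at G5.5, by 2.42 (1.68e-06) at G12.5 and by 2.57 (3.82e-07) at P14L, and Chac1, a glutathione-degrading enzyme, by 2.23 (0.0303) at P14L. Aars and Sars, the alanyl- and seryl-tRNA synthetases, were higher at G5.5 by 0.69 (0.0270) and 0.54 (0.0470).

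In the list of 12 tested aspartate, glutamate and asparagine neighbours, Pycr1, the mitochondrial proline synthesis enzyme, was higher by 1.14 (edgeR adjusted p = 0.0109) at G5.5, 2.09 (1.06e-06) at G12.5 and 1.93 (1.91e-06) at P14L, while Glud1, glutamate dehydrogenase, was lower at G12.5 (log2 difference -0.71, adjusted p 0.0256). Of 17 tested genes of glycine cleavage and serine or glycine use, 4 were higher at G12.5, G14.5, G18.5 and P14L, beside 3.28%, 5.96%, 3.27% and 2.3% of all genes. They included Gcsh, a carrier protein of the glycine cleavage system (1.36, edgeR adjusted p = 0.000126 at G12.5), Sptlc1, a subunit of the enzyme that joins serine to palmitoyl-CoA (1.14, 0.000120), and Sfxn1, the mitochondrial serine carrier (0.50, 0.0479). Of the 15 folate cycle and transport genes 1 was higher at G12.5, the thymidylate synthase Tyms (1.67, edgeR adjusted p = 0.00924). Over the whole time course the test for any difference called 1 of 13 genes of purine synthesis, 4 of 13 of the methionine cycle and transsulfuration, 4 of 15 of the folate cycle and 10 of 21 of the Atf4 list, beside 7 of the 10 members and 17.4% of all genes.

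The wild types of the knockout tables gave separate looks at gestation. In the Acss2 wild types 3 members were higher at G14.5 and 5 at G18.5 than at G0, where 2.92% and 6.89% of all genes were called. Phgdh had 35.0 and 30.7 CPM at G14.5, against 7.91 and 12.3 CPM at G0, a log2 difference of 1.70 (SE 0.30, edgeR adjusted p = 0.00355), and Asns had 128 and 104 CPM at G14.5, against 66.6 and 60.0 CPM at G0, a difference of 0.87 (SE 0.15, edgeR adjusted p = 0.00300). Mthfd2 was higher by 0.71 (edgeR adjusted p = 0.0274). At G18.5 Phgdh (1.40), Aldh1l2 (1.45), Mthfd1l (0.95), Mthfd2 (0.58) and Asns (0.58) were higher, with edgeR adjusted p values between 0.00447 and 0.0463. Each of these 8 calls was lost without at least 1 library: without G0_Acss2WT replicate 1, Phgdh had an adjusted p of 0.0662 at G14.5 and 0.133 at G18.5, Aldh1l2 0.0743, Mthfd1l 0.214, Mthfd2 0.146 and 0.192, and Asns 0.125 at G18.5, and without G0_Acss2WT replicate 2, Asns had 0.0517 at G14.5. Mthfd2 was also lost without G0_Acss2WT replicate 2 (0.180 and 0.215), G14.5_Acss2WT replicate 1 (0.133) or 2 (0.0593) or G18.5_Acss2WT replicate 1 (0.311), Mthfd1l without G0_Acss2WT replicate 2 (0.0657) or G18.5_Acss2WT replicate 2 (0.244), and Asns at G18.5 without G0_Acss2WT replicate 2 (0.193) or G18.5_Acss2WT replicate 1 or 2 (0.104 each). Limma on the deposited normalized values lost 5 of the 8, with an adjusted p of 0.0718 for Mthfd2 at G14.5 and, at G18.5, of 0.0645 for Phgdh, 0.0872 for Aldh1l2, 0.0946 for Mthfd1l and 0.150 for Mthfd2.

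In the Stat3 wild types, Mthfd1l was higher at G14.5 by 1.10 (edgeR adjusted p = 0.0221), where 1.74% of all genes were called. At G18.5, where 2.06% were called, Psph (1.40, 0.0143), Mthfd2 (1.13, 0.0213), Mthfd1l (1.25, 0.00772) and Asns (1.32, 0.00354) were higher than at G0. Asns had 161 and 233 CPM at G18.5, against 86.1 and 71.2 CPM at G0. All 5 calls were lost without G0_Stat3WT replicate 2, with adjusted p values of 0.211 for Mthfd1l at G14.5 and, at G18.5, 0.122 for Psph and for Mthfd1l, 0.219 for Mthfd2 and 0.0688 for Asns. Mthfd1l was also lost without G14.5_Stat3WT replicate 1 (0.122) or 2 (0.0525) and, at G18.5, without G18.5_Stat3WT replicate 2 (0.0908), Mthfd2 without G18.5_Stat3WT replicate 2 (0.188), and Psph without G18.5_Stat3WT replicate 1 (0.0793). In the p300 wild types no member was called at G14.5 against G0, where 2.15% of genes were called. An unadjusted p under 0.05 was found for 3 members, beside 2383 of 13475 genes, and DESeq2 called 3 members. Marker sums shifted in the knockout tables too, and their part in the members' changes was not tested. In Acss2 wild types the hepatocyte sum was 273 to 312 CPM at G18.5, against 1190 to 1244 CPM at G0. The immediate early and heat shock sum there was 363 to 719 CPM, against 994 to 999 CPM at G0. In Stat3 wild types the δ cell sum was 168 to 200 CPM at G14.5 and 111 to 128 CPM at G18.5, against 207 to 281 CPM at G0.

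The targeted genes were lower in most knockout libraries. Acss2 had 9.76 to 21.7 CPM in the knockouts and 18.0 to 38.5 CPM in the wild types of its table, with no overlap at any stage, and Ep300, which encodes p300, had 11.9 to 20.4 CPM in the knockouts and 24.2 to 37.2 CPM in the wild types. Stat3 had 49.4 to 73.7 CPM in the knockouts and 65.9 to 90.2 CPM in the wild types, and the groups overlapped at G0.

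No member was called by edgeR between knockout and wild type in any of the 3 tables. For Acss2, 0.00711%, 0.0213% and 0.149% of all genes were called at G0, G14.5 and G18.5. At an unadjusted p under 0.05, 375, 1472 and 1536 of 14057 genes passed, among them 1, 2 and 2 members. At G14.5 these were Mthfd2, with 52.8 and 53.3 CPM in the knockouts against 82.7 and 75.3 CPM in the wild types, and Asns, with 83.5 and 77.8 CPM in the knockouts against 128 and 104 CPM in the wild types. The groups did not overlap, the log2 differences were -0.57 (SE 0.17, edgeR adjusted p = 0.271) and -0.53 (SE 0.15, edgeR adjusted p = 0.260), and DESeq2 called both. Phgdh had 24.8 and 27.8 CPM in the knockouts and 35.0 and 30.7 CPM in the wild types at G14.5, and 20.8 and 12.4 CPM in the knockouts against 7.91 and 12.3 CPM in the wild types at G0.

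The change of the members from G0 to G14.5 was smaller in Acss2 knockouts than in wild types by the median, 0.05 against 0.83 on the log2 scale, and the differences between genotypes did not pass the test. The median difference of knockouts from wild types was 0.43 at G0 and -0.30 at G14.5, so the gap held a G0 difference too. The effect in knockouts minus that in wild types was -0.84 (SE 0.21, edgeR adjusted p = 0.556) for Asns, -0.78 (SE 0.23, edgeR adjusted p = 0.755) for Mthfd2 and -1.04 (SE 0.42, edgeR adjusted p = 0.776) for Phgdh. In this test of the difference, 0.0213% of all genes were called at G14.5 and 0.0142% at G18.5. There 4 and 0 members had an unadjusted p under 0.05, beside 855 and 1138 of 14057 genes, and DESeq2 called Asns at G14.5. No member was called at G14.5 against G0 in the knockouts, where 4.35% of all genes were called. An unadjusted p under 0.05 was found there for 3 members, beside 2555 of 14057 genes, and DESeq2 called 0 members. At G18.5 the medians were 0.50 in knockouts and 0.67 in wild types. Mthfd2 was then called in the knockouts, with 99.1 and 98.7 CPM at G18.5, against 62.0 and 49.1 CPM at G0 (log2 difference 0.83, SE 0.17, edgeR adjusted p = 0.0103), where 2.47% of genes were called. That call was lost without G0_Acss2KO replicate 2 (0.200).

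For Stat3, 0%, 0.0098% and 0.0196% of all genes were called at G0, G14.5 and G18.5. An unadjusted p under 0.05 was found for 3, 1 and 6 of the 9 members, beside 830, 875 and 507 of 10207 genes. At G18.5 the members' median log2 difference was -0.94. Asns had 99.4 and 106 CPM in the knockouts, against 161 and 233 CPM in the wild types (-0.94, SE 0.22, edgeR adjusted p = 0.323), and Mthfd2 had 64.0 and 72.3 CPM in the knockouts, against 118 and 176 CPM in the wild types (-1.11, SE 0.24, edgeR adjusted p = 0.175). Psat1, Psph and Aldh1l2 had log2 differences of -1.45, -1.13 and -1.39 at G18.5, with edgeR adjusted p values of 0.857, 0.382 and 0.627. Of the 9 members, 3 had a difference above 0 there. DESeq2 called Asns, Mthfd2 and Psph there. At G0 Mthfd1l had 28.7 and 25.2 CPM in the knockouts, against 11.7 and 9.03 CPM in the wild types (1.37, SE 0.23, edgeR adjusted p = 0.0683), and DESeq2 called it. The change from G0 differed between Stat3 knockouts and wild types for no member by edgeR, where 0% and 0.0392% of all genes were called at G14.5 and G18.5. There 1 and 6 of the 9 members had an unadjusted p under 0.05, beside 809 and 755 of 10207 genes. At G18.5 the effect in knockouts minus that in wild types was -1.43 for Asns (SE 0.31, edgeR adjusted p = 0.178) and -1.52 for Mthfd2 (SE 0.34, edgeR adjusted p = 0.184), and DESeq2 called both, Psph and Mthfd1l.

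**Figure D3:**
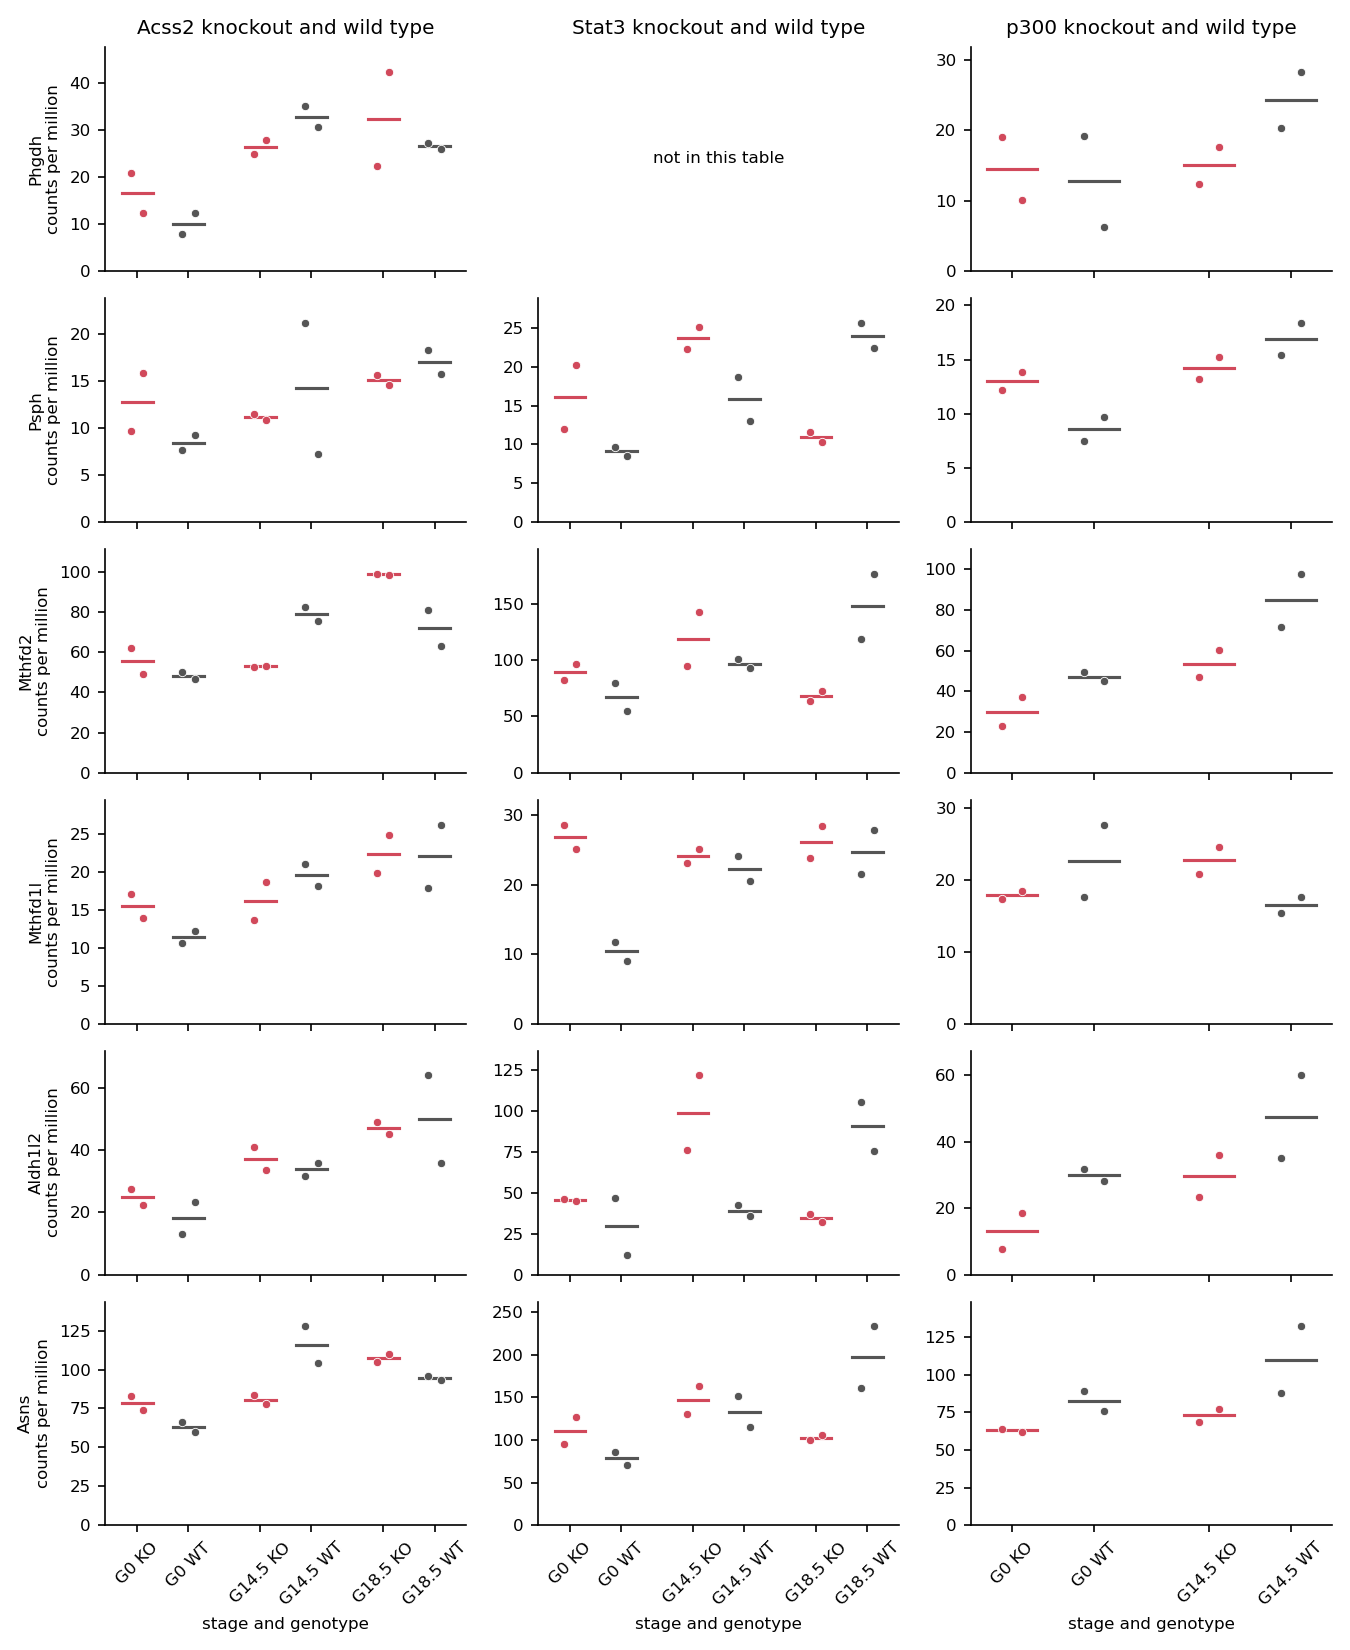
CPM of 6 of the enzyme genes in knockout libraries (left of each pair) and wild-type libraries (right) of the Acss2, Stat3 and p300 tables by stage; points are summed libraries and bars are means. At G18.5 in the Stat3 table Asns stands at 99.4 and 106 CPM in knockouts and at 161 and 233 CPM in wild types, and no pair shown passed the test.

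For p300, 1.54% of all genes were called at G0 and 0% at G14.5. An unadjusted p under 0.05 was found for 3 and 2 members, beside 2286 and 1333 of 13475 genes. Aldh1l2 had 7.72 and 18.52 CPM in the knockouts, against 31.7 and 28.1 CPM in the wild types at G0 (log2 difference -1.19, SE 0.37, edgeR adjusted p = 0.136), and DESeq2 called it. At G14.5 Mthfd2 had 47.0 and 60.2 CPM in the knockouts, against 71.6 and 97.9 CPM in the wild types (-0.66, SE 0.25, edgeR adjusted p = 0.367). Within the knockouts no member was called by edgeR between gestation and G0, at G14.5 or G18.5 for Stat3 (1.7% and 1.48% of all genes called) or at G14.5 for p300 (3.27%). At an unadjusted p under 0.05, 2, 0 and 3 members passed. Of all genes, 1414 and 1163 of 10207 passed for Stat3 and 2306 of 13475 for p300. DESeq2 called 0, 0 and 2 members. In the test of the difference between the gestation effects in p300 knockouts and wild types, 0.0668% of all genes and no member were called. There 2 members had an unadjusted p under 0.05, beside 1399 of 13475 genes, and DESeq2 called 0 members.

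On the high-fat diet no member passed the test at G14.5 against G0, where 1.95% of all genes were called. Shmt2 came closest, with 21.6, 26.7 and 19.6 CPM at G14.5, against 14.2 and 11.1 CPM at G0 (log2 difference 0.84, SE 0.23, edgeR adjusted p = 0.0626), and all G14.5 libraries were above those of G0. Phgdh had 25.4, 25.3 and 26.1 CPM at G14.5, against 19.6 and 11.2 CPM at G0 (0.74, SE 0.28, edgeR adjusted p = 0.201). At an unadjusted p under 0.05, 2 members passed there, beside 2178 of 14115 genes, and of the members DESeq2 called Shmt2. At P7NL no member was called against G14.5 or G0, where 1.32% and 0% of genes were called and 3 and 0 members had an unadjusted p under 0.05. Among all 14115 genes, 1813 and 759 passed at that unadjusted level. DESeq2 called Mthfd2 and Shmt2 lower at P7NL than at G14.5.

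Between Acss2 knockouts and wild types on the high-fat diet, and between high-fat and standard diet in Acss2 wild types at G14.5, no member was called by edgeR or DESeq2. Nor was any called between G14.5 and G0 on that diet within the Acss2 wild types (1.93% of all genes called) or knockouts (3.85%) by either tool. An unadjusted p under 0.05 was found for 2 and 1 members, beside 1984 and 2700 of 14115 genes. In the comparisons of genotype and diet, the shares of all genes called were 0% at G0 and 0.0638% at G14.5 between genotypes and 0.213% between diets. There 1, 1 and 0 members had an unadjusted p under 0.05, beside 1094, 1195 and 1733 of 14115 genes. Phgdh had 23.6 and 24.0 CPM on the high-fat diet, against 18.7 and 13.1 CPM on the standard diet (log2 difference 0.58, SE 0.30, edgeR adjusted p = 0.448).

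In cultured islets, A485 lowered Psat1 in normal serum. It had 6.16 and 6.05 CPM with A485, against 19.5 and 34.6 CPM with vehicle (log2 difference -2.15, SE 0.50, edgeR adjusted p = 0.0471), where 2.57% of all genes were called. All 10 members had a log2 difference below 0 there, with a median of -0.75 against -0.02 for all genes. Phgdh had 20.6 and 13.96 CPM with A485, against 49.1 and 45.5 CPM with vehicle (-1.45, SE 0.40, edgeR adjusted p = 0.0841). Mthfd1l (-1.50, edgeR adjusted p = 0.0604), Asns (-0.61, 0.0717) and Mthfd2 (-0.81, 0.111) did not pass the test with edgeR, while DESeq2 called these 3 and Phgdh.

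In maternal serum A485 lowered Aldh1l2, which had 16.9 and 23.1 CPM with A485, against 39.1 and 50.7 CPM with vehicle (log2 difference -1.17, SE 0.23, edgeR adjusted p = 0.0200), where 3.3% of all genes were called. Phgdh had 20.6 and 58.9 CPM with A485, against 25.9 and 40.9 CPM with vehicle, and the groups overlapped. The A485 effect in maternal serum minus that in normal serum was 1.70 (SE 0.56, edgeR adjusted p = 0.980) for Phgdh. That test called 0.00738% of all genes and no member. It gave 2 members an unadjusted p under 0.05, beside 633 of 13554 genes, and DESeq2 called 0 members. The Psat1 call was lost without NS_A485 replicate 1 (0.207) or 2 (0.206) or NS_A485Ctrl replicate 2 (0.139), and gave 0.0501 with the insulin genes taken out before normalization. The Aldh1l2 call was lost without MS_A485 replicate 1 (0.140) or MS_A485Ctrl replicate 2 (0.0705).

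Nifuroxazide lowered Phgdh in normal serum. It had 30.7 and 49.4 CPM with nifuroxazide, against 72.6 and 111 CPM with vehicle (log2 difference -1.20, SE 0.27, edgeR adjusted p = 0.0358), where 1.99% of all genes were called. In maternal serum Phgdh had 47.8 and 42.3 CPM with nifuroxazide, against 64.4 and 84.2 CPM with vehicle (-0.72, SE 0.26, edgeR adjusted p = 0.347), with no overlap. No member was called there, where 0.697% of genes were. An unadjusted p under 0.05 was found for 2 members, beside 1336 of 13481 genes, and DESeq2 called 0 members. Asns had 167 and 209 CPM with nifuroxazide, against 276 and 323 CPM with vehicle in normal serum (-0.67, SE 0.18, edgeR adjusted p = 0.0744), and DESeq2 called it. The Phgdh call was lost without NS_Nif replicate 1 (0.148) or NS_NifCtrl replicate 2 (0.280), and by limma (0.0947). Of the Atf4 list, 7 of 22 tested genes were higher with nifuroxazide in normal serum and none was lower, among them Ddit3 (2.71, edgeR adjusted p = 4.24e-06) and Nupr1 (2.10, edgeR adjusted p = 0.000281), while with A485 2 were lower and none higher.

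**Figure D4:**
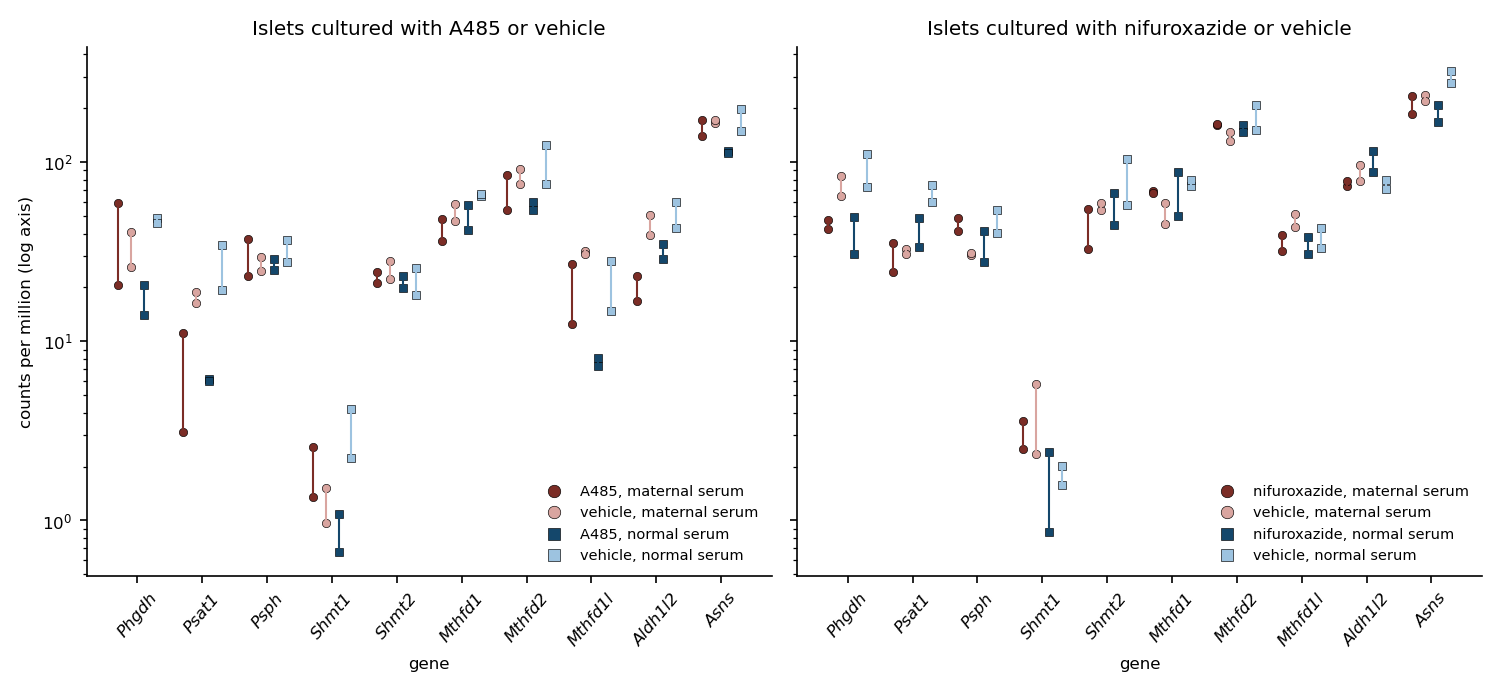
CPM of the enzyme genes in cultured islets (log axis; treated libraries left of vehicle in each pair, points are the 2 summed libraries of a group, joined by a line). Psat1 stands at 6.16 and 6.05 CPM with A485 and at 19.5 and 34.6 CPM with vehicle in normal serum, and Phgdh at 30.7 and 49.4 CPM with nifuroxazide and at 72.6 and 111 CPM with its vehicle.

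Marker sums moved with both treatments. Here too the α cell and hepatocyte lists share Ttr. With A485 in normal serum the 10 β cell markers summed to 518587 and 540253 CPM, against 655611 and 657816 CPM with vehicle, the δ cell markers to 114 and 127 CPM, against 475 and 2473 CPM with vehicle, and the immediate early and heat shock genes to 1940 and 2160 CPM, against 1010 and 1061 CPM with vehicle. With A485 in maternal serum, where Aldh1l2 was called, the β cell markers summed to 406592 and 421839 CPM, against 501529 and 580539 CPM with vehicle, and the immediate early and heat shock genes to 2502 and 2648 CPM, against 1386 and 1461 CPM with vehicle. The δ cell sums there overlapped. With nifuroxazide in normal serum the β cell markers summed to 430505 and 432488 CPM, against 539925 and 553107 CPM with vehicle, the α cell markers to 1674 and 1904 CPM, against 3252 and 5722 CPM with vehicle, and the hepatocyte markers to 1045 and 1316 CPM, against 2233 and 4366 CPM with vehicle. Their part in the members' changes was not tested.

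Between maternal and normal serum no member was called by edgeR, with the A485 vehicle (0.657% of all genes called), under A485 (0.288%), with the nifuroxazide vehicle (1.02%) or under nifuroxazide (0.49%). At an unadjusted p under 0.05, 0, 4, 4 and 1 members passed. Of all genes, 1632 and 1174 of 13554 passed in the A485 cultures and 1303 and 1351 of 13481 in the nifuroxazide cultures. Of the members, DESeq2 called Mthfd1l under A485 and Psat1 with the nifuroxazide vehicle. Psat1 had 32.9 and 30.9 CPM in maternal serum, against 60.2 and 74.9 CPM in normal serum with that vehicle (log2 difference -1.08, SE 0.25, edgeR adjusted p = 0.0710).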

How the data were processed

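Processed tables of single cells were used. The deposited tables hold whole-number read counts per gene and cell, per the file headers, and a second set of normalized values. In the tables of mice those deposited normalized signal values, scaled by gene length and cell, sum to 100000 per cell without Ins1 and Ins2, and in the culture tables to between 74540 and 154238. Per the submitters' processing notes, the tools were Trimmomatic 0.39, featureCounts 2.0.1 and Cell Ranger 3.1.0 and the builds GRCm38 and mm10, with no role stated. Neither the aligner nor the use of strand is given in the sources used here, and 2 droplet samples were not analysed here.

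Counts were summed over the cells of each labelled replicate. One edgeR 4.0.16 model per table (R 4.3.3) used filterByExpr, TMM factors and the quasi-likelihood test, with Benjamini-Hochberg adjustment over all genes tested in a comparison and a threshold of 0.05. The alternatives were RLE factors, DESeq2 1.42.0, no filter, Ins1 and Ins2 taken out, limma 3.58.1 on log2(mean normalized value + 1), cells over 5% in other hormone genes or over 1% in acinar genes left out, the replicate number as a block, and each library left out in turn. CPM used the TMM library sizes. Intervals are 95% Wilson intervals. Tested on simulated counts for G5.5 against G0 (14970 genes), the fit recovered 4, 36, 50 and 50 of 50 genes changed by a log2 of 0.5, 1, 1.5 and 2, with 7 false calls. Tables were tested separately.

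The members and gene lists were chosen with earlier results of these data known. All members are named. From each neighbouring list up to 3 called genes with the largest difference and a mean of at least 10 CPM in a group are named. Eif4ebp1, Yars and other genes close to a member are the 3 with the highest r.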

Additional observations from a re-analysis of the deposited data

Results flagged for a closer look

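In 7 cases all libraries of one arm of a comparison moved one way against their baseline and all libraries of the other arm the opposite way. The difference between the 2 effects was tested by the interaction term of edgeR's quasi-likelihood test and passed an adjusted p of 0.05 in 0 of the 7 cases, while 6 had an unadjusted p under 0.05 and DESeq2 called Psph and Mthfd2 in the Stat3 table. The cases were chosen for these opposite moves, which also lower the p of the interaction, so the unadjusted p values are no independent evidence of a difference.

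In the Stat3 table, the G18.5 effect in knockouts minus that in wild types was -1.95 on the log2 scale for Psph (adjusted p = 0.154), -1.52 for Mthfd2 (adjusted p = 0.184) and -2.00 for Aldh1l2 (adjusted p = 0.422). At G14.5 it was -1.26 for Mthfd1l (adjusted p = 0.334). In the p300 table the G14.5 effect on Mthfd1l was higher in knockouts than in wild types by 0.81 (adjusted p = 0.463). On the high-fat diet the G14.5 effect on Shmt2 in Acss2 knockouts minus that in wild types was -0.50 (adjusted p = 0.753). In the cultures the nifuroxazide effect on Aldh1l2 in maternal serum minus that in normal serum was -0.65 (adjusted p = 0.687).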

How the results depend on the processing

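No called member changed its direction under any alternative. Counts of members called moved by over 1.5 times as follows, with the value as reported in brackets. By limma on mean normalized values they were 11 (23) over the gestation stages, 5 (9) after delivery, 2 (0) over the high-fat stages and 0 (1) for nifuroxazide. By DESeq2 they were 2 (0) between Acss2 knockout and wild type, 20 (13) for gestation in the wild types of the knockout tables, 5 (1) for gestation in knockouts, 5 (0) for the difference of these effects, 4 (0) between Stat3 and 1 (0) between p300 knockout and wild type, 3 (0) over the high-fat stages, 2 (0) for serum, 6 (2) for A485 and 2 (1) for nifuroxazide. With no filter on low counts they were 16 (9) after delivery, 26 (13) for gestation in wild types, 9 (1) in knockouts and 6 (0) for their difference, 7 (0) for Stat3, 2 (0) for p300, 2 (0) over the high-fat stages, 3 (0) for Acss2 on the high-fat diet, 3 (0) for serum, 9 (2) for A485 and 3 (1) for nifuroxazide. With Ins1 and Ins2 taken out A485 had 1 (2). Over 641 member tests, of which edgeR called 59, DESeq2 gained 44 calls and lost 0, and dropping the filter gained 72 and lost 1. The shares of all genes called under these alternatives are not given, so the member counts cannot be set against them. The cause of these shifts was not tested.

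The replicate numbers did not pair the samples: the median correlation of same-numbered libraries was between -0.01 and 0.02 over the tables. With the replicate block the counts were 2 (1) for gestation in knockouts, 1 (0) for p300, 1 (0) for serum, 4 (2) for A485 and 23 (23) over the gestation stages, where Aldh1l2 at G12.5 and Asns at G18.5 were lost and Psat1 at G12.5 and G14.5 was gained. For any difference over the time course the count was 5 (7), with Mthfd1 and Mthfd2 lost.

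With single libraries left out the counts ran between 6 and 24 over the gestation stages, 6 and 9 after delivery, 1 and 3 for the steps within the time course, 4 and 7 for any difference over it, 6 and 17 for gestation in wild types, 0 and 3 in knockouts, 0 and 2 for their difference, 0 and 2 for Stat3, 0 and 1 for p300, 0 and 1 for serum, 1 and 5 for A485 and 0 and 1 for nifuroxazide. They were 0 throughout for Acss2, for lactation, for the high-fat stages, for Acss2 on that diet and for diet. Limma was not run in the Stat3 and p300 tables, where normalized values were incomplete, and leaving out acinar cells removed 1 cell. With 2 libraries in most groups, changes under a log2 of 1 are often missed.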
